A study of Homo sapiens with 6 samples.

Results

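Cancer-associated fibroblasts (CAFs) were modelled in culture with MRC5, a human embryonic lung fibroblast line immortalised with telomerase, and one arm of the study asked what a JNK inhibitor does to the transcriptome of such cells. Induced CAFs (iCAFs) were MRC5 cells kept for 7 days in medium conditioned by MDA-MB-231 breast cancer cells, and iCAFs+JNKi had in addition received JNK-IN-8, a selective inhibitor of the JNK kinases, at 1 µM for 48 h. The label of the iCAFs library does not name a vehicle, although the protocol gives DMSO to iCAFs without inhibitor. The remaining library of the table was MRC5 with no treatment. A second table, used near the end, held MRC5 infected with adenovirus for an empty vector (control), wild-type JUN (JUN WT) or JUN AA, in which the serines that JNK phosphorylates are changed to alanine. For each gene the log2(FPKM + 1) level in iCAFs was subtracted from that in iCAFs+JNKi, where FPKM are fragments per kilobase of transcript, scaled to the mapped fragments of the library. A positive change therefore means a higher level with the inhibitor. Of 25368 gene symbols in the table, 11780 had a mean of at least 1 FPKM over the 3 libraries and were compared, from 2 of the 6 libraries of the series. All values come from 1 library of 1 cell line per condition, so there is no error, test or p-value for any of them, and the changes describe these libraries only.

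JNK kinases are activated by stress and by inflammatory cytokines, and they phosphorylate JUN in its activation domain. JUN pairs with FOS-family or other JUN-family proteins to form AP-1, which binds TGACTCA or TGAGTCA in promoters and enhancers. In fibroblasts AP-1 is known for driving inflammatory cytokines, proteases and growth factors, and its own JUN gene is among its targets.

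Summed over all symbols, FPKM came to 393521 for iCAFs, 359944 for iCAFs+JNKi and 399532 for MRC5, and the 10 most abundant genes held 6.68% to 7.27% of each sum. Sequencing depth was not known from FPKM. The labelled cell type was checked first. VIM, the intermediate filament of mesenchymal cells, stood at 1655 FPKM in iCAFs, 1209 with JNKi and 2892 in untreated MRC5, and all 12 fibroblast markers passed the filter. Of 14 epithelial markers only KRT8 and KRT18 passed, and CDH1, KRT5, KRT14, ESRP1 and GRHL2 were listed at 0 in all 3 libraries. Epithelial markers summed to 34.5 FPKM in iCAFs, 41.6 with JNKi and 40.7 in untreated MRC5. Of 11 leukocyte markers only CD68 passed, with PTPRC, CD3E and LYZ at 0 throughout, and the sums in the same order were 39.7, 39.0 and 49.4 FPKM. Of 10 endothelial markers only TEK, an angiopoietin receptor, passed, at 3.77 FPKM in iCAFs, 10.4 with JNKi and 2.52 in untreated MRC5, while CDH5, EMCN and ERG were listed at 0. In a bulk library fewer cells of a type and less RNA per cell cannot be told apart.

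With JNKi, 4406 genes were above 0 and 7372 below 0, which is the background for the counts of list members below. At the 2-fold limit, 265 of the 11780 genes were at least 2-fold higher, 2.25% of those compared, and 232 were at least 2-fold lower, 1.97%. The median change over all genes was -0.10, with quartiles of -0.31 and 0.12, and the outer percentiles, the 1st and the 99th, lay at -1.28 and 1.47. The median and the balance of directions depended on scaling. When the 3 libraries were brought to the same FPKM sum the median moved to 0.01, and the higher share of the 2-fold changes went from 53.3% to 65.1%. Changes of single genes and lists below are given on the deposited scale and read against its median. Spread differed little with abundance: the 99th percentile was 1.44 in the fifth of genes with the lowest means and 1.60 in the fifth with the highest. Just inside the limit for a higher gene were ZNF438 at 1.01 and PTN at 1.01, and just outside were MYLK and TRAPPC6A, with 102 to 206 FPKM and 2.26 to 5.51 FPKM. On the lower side SNHG4, at -1.01, and IFIT1, which went from 1.80 to 0.396 FPKM, were inside, and ANLN, from 13.2 to 6.10 FPKM, and CKAP2L, from 4.17 to 1.59 FPKM, were outside. The filter admitted C3orf55 and ZFHX4, and left out GAPDHS and ZNF484, all with means within rounding of 1 FPKM. Among the lower genes 11 were listed at 0 with JNKi, and 1 of the higher genes was listed at 0 in iCAFs.

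Within the highest-ranked changes at a mean of at least 5 FPKM, the lower side held LIF, CSF3, CCL20, IL6, IL1B, IL32, PTX3, HBEGF and PTGS2, and the higher side held SULF1, RGS5, PODN, CEMIP, CXCL12, ELN, ACTA2, CDH6, PCDH18 and COL3A1. The 15 lowest also included SERF2-C15ORF63 at -5.24, the largest decrease, KRTAP2-3, NPTX1 at -3.17, LCE2C, RPL21 and BCL2L2-PABPN1. The 15 highest also included CHI3L2 at 3.67, the largest increase, C10orf10, HBG2, HBG1 and COLEC10.

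**Figure D1:**
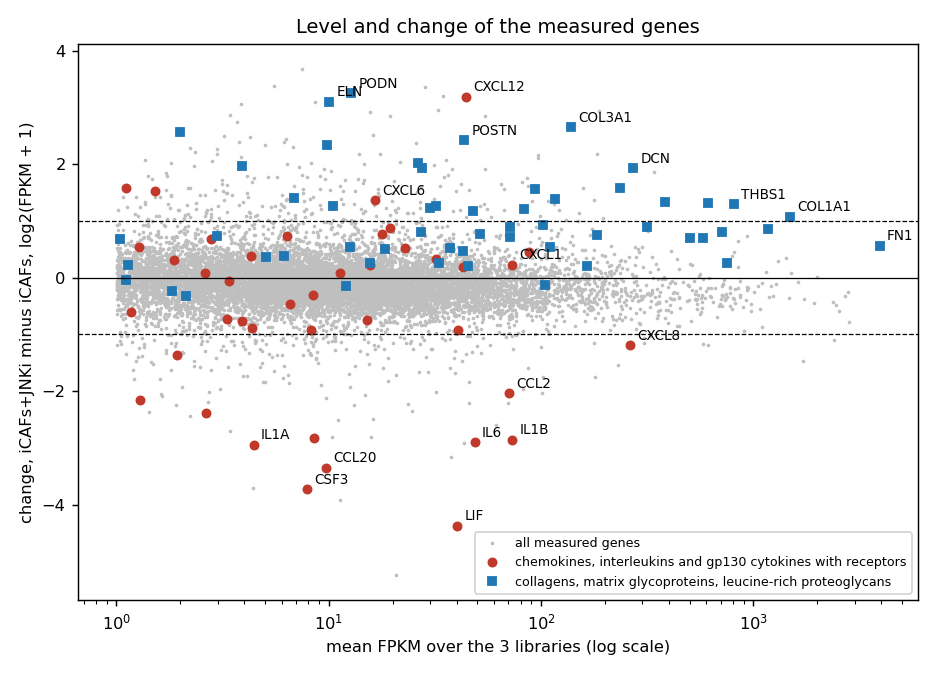
Change with JNKi on the vertical axis, as log2(FPKM + 1) in iCAFs+JNKi minus iCAFs, against the mean FPKM of the 3 libraries on a logarithmic horizontal axis, for 11780 genes. Grey points are all genes, red circles are chemokines, interleukins and gp130 cytokines with their receptors, blue squares are matrix genes, and dashed lines mark 2-fold. LIF at -4.37 is the lowest red point, and PODN at 3.25 the highest blue one.

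The transcription factors that JNK acts on came first. JUN stood at 55.3 FPKM in iCAFs, 21.1 with JNKi and 57.1 in untreated MRC5, so the 2 libraries without inhibitor were alike and the treated one lower, with a log2 change of -1.35. FOSL1, a FOS-family partner of JUN, was at 84.0 FPKM in iCAFs, 41.0 with JNKi and 103 in untreated MRC5, a change of -1.02. These were the AP-1 genes at least 2-fold lower, 2 of 13 measured, with none 2-fold higher and a median of -0.36 against -0.10 over all genes, which with no filter was -0.10 for the list too. FOSL2 at -0.99 and JUND at -0.93 lay close to the limit, whereas JUNB, at 32.6 FPKM in iCAFs, 31.3 with JNKi and 17.9 in untreated MRC5, was nearly level, and ATF2, a JUN partner that JNK also phosphorylates, was at 0.18. The repressive JDP2 had the highest change of the list, 0.39.

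Genes of the kinase cascade itself moved little. MAPK8 and MAPK9, which encode JNK1 and JNK2, had a change of 0.22 and -0.11, and none of 23 kinases and scaffolds passed 2-fold in either direction. Their median was -0.08, which became 0.04 when libraries were scaled to the same sum. MAPK10, encoding JNK3, went from 0.734 to 1.83 FPKM and TNIK, a kinase upstream of JNK, from 4.61 to 2.42 FPKM.

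Feedback genes of the MAPK pathways were lower in 12 of 15 cases, 3 of them 2-fold, with a median of -0.48. SPRY2, an inhibitor of receptor tyrosine kinase signalling, was at 30.5 FPKM in iCAFs, 8.90 with JNKi and 40.5 in untreated MRC5. DUSP5 and DUSP1, phosphatases of ERK and of JNK and p38, went from 13.9 to 5.49 FPKM and from 86.7 to 41.1 FPKM. SPRY1 was the exception at 2-fold higher, with 1.08 to 3.52 FPKM. Of 16 immediate early transcription factors 3 were 2-fold lower, namely IER3 with 32.5 to 7.01 FPKM, NR4A2 with 15.5 to 6.17 FPKM and KLF2 with 8.69 to 3.62 FPKM. MYC, which promotes growth and division, was at -0.91, and EGR1, an ERK-responsive factor, at -0.18.

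Upstream sequences of 4 genes with a match to AP-1 or to the CArG box, the site of serum response factor, are shown because JNK acts through AP-1 and because contractile genes stood among the higher ones, and the 4 were chosen after their values were seen. The sequences are from RefSeq on GRCh38.p14, 250 bases that end just before the annotated start, 5′ to 3′ on the strand of the gene, with the matches in capitals. IL1A (chr2:112784494-112784743, minus strand) and CXCL8 (chr4:73740319-73740568, plus strand) were lower with JNKi and carry TGACTCA, beginning 12 and 137 bases before the start. POSTN (chr13:37598769-37599018, minus strand) was higher and carries TGAGTCA 220 bases before the start. ACTG2 (chr2:73892758-73893007, plus strand) was also higher and holds CArG boxes 110 and 73 bases before the start.
IL1A: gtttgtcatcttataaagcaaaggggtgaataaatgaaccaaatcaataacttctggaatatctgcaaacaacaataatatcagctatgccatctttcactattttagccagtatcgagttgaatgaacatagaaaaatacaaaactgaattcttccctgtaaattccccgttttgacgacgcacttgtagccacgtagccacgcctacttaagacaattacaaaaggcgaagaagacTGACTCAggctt
CXCL8: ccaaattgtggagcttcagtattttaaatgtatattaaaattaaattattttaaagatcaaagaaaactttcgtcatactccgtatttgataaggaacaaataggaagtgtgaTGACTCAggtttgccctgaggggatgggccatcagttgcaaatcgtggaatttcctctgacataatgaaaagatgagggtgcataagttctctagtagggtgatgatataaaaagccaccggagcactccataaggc
POSTN: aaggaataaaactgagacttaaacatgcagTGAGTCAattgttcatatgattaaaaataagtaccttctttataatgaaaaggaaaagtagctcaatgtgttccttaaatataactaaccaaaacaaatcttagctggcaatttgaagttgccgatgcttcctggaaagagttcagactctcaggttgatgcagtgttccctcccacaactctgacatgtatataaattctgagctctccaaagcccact
ACTG2: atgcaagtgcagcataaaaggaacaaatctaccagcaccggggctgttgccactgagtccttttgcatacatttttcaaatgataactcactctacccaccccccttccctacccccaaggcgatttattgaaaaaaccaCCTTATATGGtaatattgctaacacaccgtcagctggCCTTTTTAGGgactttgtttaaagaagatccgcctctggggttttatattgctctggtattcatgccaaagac

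The AP-1 heptamer was thus found near genes of both directions. Searched as TGACTCA or TGAGTCA, which are each other's reverse complement, it lay within 250 bases before to 50 after the start in 267 of 9360 promoters of compared genes, 2.85%. TATAAA on either strand was found in 5.29% of these promoters, GGAATG on either strand, the TEAD motif, in 10.8%, and the CArG box in 1.07%. The AP-1 heptamer lay in 9 of 149 promoters of lower genes and 13 of 192 of higher genes, and the CArG box in 2 and 7. Of the 15 largest decreases 11 had a promoter, and of the 15 largest increases 8, and 0 of these carried either motif. Shares among the changed genes are void as a check, because only 149 of the 232 lower genes and 192 of the 265 higher genes could be matched to a promoter.

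Among cytokines of the interleukin-6 and interleukin-1 families LIF, IL6, IL1A and IL1B were at least 2-fold lower, while the lists they belong to were mixed. LIF, a gp130 cytokine, was at 104 FPKM in iCAFs, 4.06 with JNKi and 13.0 in untreated MRC5, so the treated library was 25.5-fold below iCAFs and also below MRC5. IL6, which signals through the same receptor subunit, was at 129 FPKM in iCAFs, 16.4 with JNKi and 0.627 in untreated MRC5. It stayed above MRC5 but was 7.84-fold below iCAFs. IL11, also of this family, was at 72.7 FPKM in iCAFs, 37.8 with JNKi and 10.6 in untreated MRC5, a change of -0.93 that missed 2-fold. The receptor subunits went the other way or were level: IL6ST, encoding gp130, went from 81.5 to 113 FPKM, OSMR from 46.8 to 53.8 FPKM and LIFR from 2.66 to 3.75 FPKM. Of 16 genes in this list 2 were 2-fold lower and 1 higher. The list median was -0.11, beside -0.10 for all genes.

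IL1B, a main cytokine of inflammation, was at 194 FPKM in iCAFs, 25.9 with JNKi and listed at 0 in untreated MRC5, so it was 7.48-fold lower with the inhibitor. IL1A, its membrane-bound relative, was at 12.5 FPKM in iCAFs, 0.761 with JNKi and listed at 0 in untreated MRC5. IL33, an alarmin, went the opposite way with 0.335 FPKM in iCAFs, 3.01 with JNKi and listed at 0 in untreated MRC5, and the receptor IL1R1 from 20.9 to 30.4 FPKM. The interleukin-1 list thus held 2 genes 2-fold lower and 1 higher of 6 measured, with a median of -0.39 that became 0 with no filter. IL1A passed the filter through its level in iCAFs and IL33 through its level with JNKi, so these directions were favoured by the filter. Outside these families, CSF3, which stimulates neutrophil production, was at 22.8 FPKM in iCAFs, 0.796 with JNKi and listed at 0 in untreated MRC5. The cytokine IL32 was at 13.3 FPKM in iCAFs, 1.03 with JNKi and 11.3 in untreated MRC5, a level with JNKi below both other libraries. KITLG, the KIT ligand, was among the higher ones with 13.7 to 26.1 FPKM, and IL24 with 2.95 to 5.38 FPKM. Both remained under 2-fold.

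**Figure D2:**
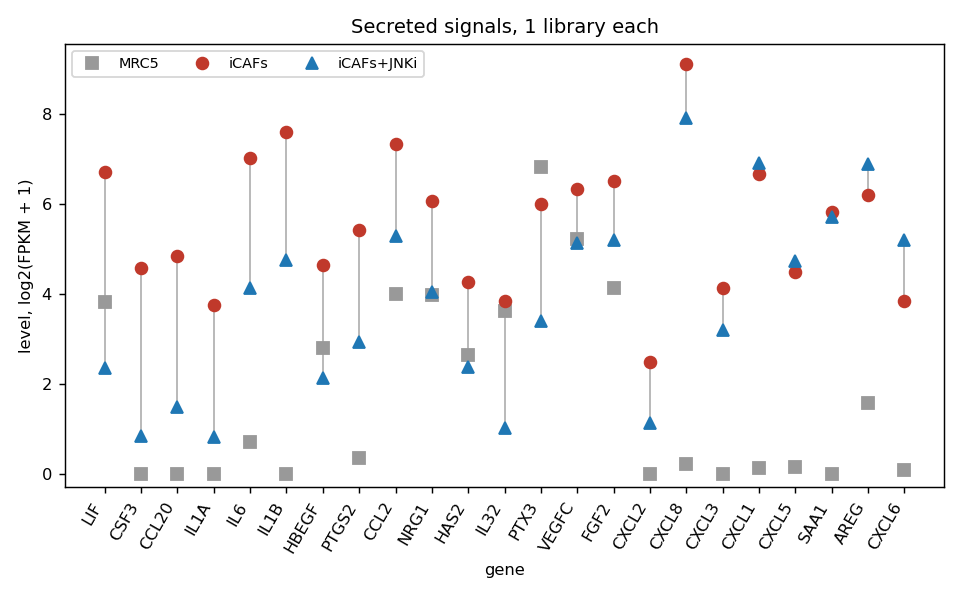
Levels of 23 secreted signals and related genes, log2(FPKM + 1), with 1 point per library: grey squares MRC5, red circles iCAFs and blue triangles iCAFs+JNKi, the vertical line joining the last pair. From LIF to CXCL3 the blue triangle lies below the red circle, and from CXCL1 to CXCL6 it lies near or above it, as for CXCL6 with 13.3 and 35.9 FPKM.

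Chemokines outside the neutrophil-attracting group had 4 genes lower and 1 higher among the 5 of 26 that passed the filter. CCL20, which recruits CCR6-bearing lymphocytes, was at 27.4 FPKM in iCAFs, 1.80 with JNKi and listed at 0 in untreated MRC5, and CCL2, which recruits monocytes, at 159 FPKM in iCAFs, 38.1 with JNKi and 14.8 in untreated MRC5. CCL3 went from 7.14 to 0.563 FPKM and CXCL10, induced by interferon, from 3.48 FPKM to a listing of 0. CXCL12, which retains CXCR4-bearing cells, was by contrast at 12.1 FPKM in iCAFs, 118 with JNKi and 2.13 in untreated MRC5, the treated library being 9.78-fold above iCAFs. All of these changes were past 2-fold, with a median of -2.16, the value of CXCL10, which became 0 with no filter and -3.45 with a pseudocount of 0.1. CCL20, CCL3 and CXCL10 passed the filter through their level in iCAFs, so a decrease in them was favoured by the filter. The same applies to CSF3, CXCL2, BCL2A1, IVL, IFIT1 and IFIT2. SULF1, CHI3L2, C7, COL14A1, ID4, TNFSF18, HBD, ELN, FLT1, RGS9, SPRY1 and TRPC6 passed it through their level with JNKi, so an increase in them was favoured. Other genes at low levels may be affected in the same way.

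The chemokines that attract neutrophils through CXCR2 separated from each other. CXCL8 was at 548 FPKM in iCAFs, 240.0 with JNKi and 0.153 in untreated MRC5, a change of -1.19, and CXCL2 and CXCL3 had a change of -1.36 and -0.93. CXCL1 was at 101 FPKM in iCAFs, 118 with JNKi and 0.0877 in untreated MRC5 and CXCL5 at 21.4 FPKM in iCAFs, 25.3 with JNKi and 0.104 in untreated MRC5, so both were slightly higher in the treated library. CXCL6 was at 13.3 FPKM in iCAFs, 35.9 with JNKi and 0.0628 in untreated MRC5, 2.69-fold higher. The 6 measured genes summed to 705 FPKM in iCAFs, 429 with JNKi and 0.408 in untreated MRC5, so the treated library stayed far above MRC5. Among other acute-phase genes SAA1 was at 55.4 FPKM in iCAFs, 50.9 with JNKi and listed at 0 in untreated MRC5, SAA2 went from 37.0 to 41.5 FPKM, and the complement component C3 was at 130.4 FPKM in iCAFs, 80.8 with JNKi and 1.18 in untreated MRC5.

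NF-kB subunits and feedback genes, which share many cytokine targets with AP-1, were lower in 15 of 16 cases with a median of -0.69, and 5 were 2-fold lower. ICAM1, a leukocyte adhesion molecule, was at 45.7 FPKM in iCAFs, 13.3 with JNKi and 3.46 in untreated MRC5, and SOD2, a mitochondrial superoxide dismutase, at 454 FPKM in iCAFs, 156 with JNKi and 82.2 in untreated MRC5. NFKBIA and TNFAIP3, inhibitors of the pathway, went from 57.3 to 23.4 FPKM and from 14.7 to 6.44 FPKM, and TNIP1 from 173 to 73.4 FPKM. The subunit genes changed less, with NFKB1 at -0.85, RELB at -0.74 and RELA at -0.17. Prostaglandin synthesis divided by enzyme: PTGS2, the inducible cyclooxygenase, was at 41.5 FPKM in iCAFs, 6.61 with JNKi and 0.274 in untreated MRC5, while PTGS1, the constitutive one, was at 64.4 FPKM in iCAFs, 167 with JNKi and 40.6 in untreated MRC5. Of 15 genes in that list 1 was 2-fold lower and 3 were higher, the others being PTGDS with 2.14 to 6.17 FPKM and the thromboxane synthase TBXAS1 with 5.14 to 17.2 FPKM. PTX3, a secreted pattern-recognition protein, was at 62.5 FPKM in iCAFs, 9.56 with JNKi and 111 in untreated MRC5, below both other libraries with JNKi.

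TNF-superfamily members included 3 higher and 0 lower by 2-fold among 20 measured. TNFSF18, a ligand of T cells, went from 1.18 to 11.2 FPKM, TNFSF4, the ligand of OX40, from 6.25 to 23.1 FPKM, and the receptor TNFRSF21 from 13.0 to 34.7 FPKM. The largest decrease was that of TNFSF15, at -0.90. Interferon-response genes were mixed, with 2 higher and 2 lower of 26 and a median of -0.10, which became 0.23 at a mean of at least 5 FPKM. IFIT2 and IFIT1 went from 2.83 to 0.577 FPKM and 1.80 to 0.396 FPKM, whereas IFITM1 and STAT2 went from 29.5 to 65.8 FPKM and 17.3 to 36.7 FPKM. None of 12 MHC class I and antigen-processing genes reached 2-fold, with a median of -0.16. Complement genes were higher on balance, 4 of 11 by 2-fold with a median of 0.60, or 0.029 with no filter. C1R and C1S, proteases of the classical pathway, went from 24.7 to 73.2 FPKM and 71.6 to 154 FPKM, MASP1, a protease of the lectin pathway, from 5.81 to 19.8 FPKM, and C7, of the membrane attack complex, from 0.104 to 3.66 FPKM.

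Growth factors were lower for several EGF, FGF and VEGF ligands and higher for PDGF receptors and angiopoietin. HBEGF, an EGF-receptor ligand, was at 23.8 FPKM in iCAFs, 3.36 with JNKi and 5.95 in untreated MRC5, and NRG1, a ligand of ERBB3 and ERBB4, at 66.0 FPKM in iCAFs, 15.5 with JNKi and 14.7 in untreated MRC5. AREG, another EGF-receptor ligand, was at 71.8 FPKM in iCAFs, 117 with JNKi and 1.97 in untreated MRC5 and so differed from them in direction. FGF2 was at 89.9 FPKM in iCAFs, 35.9 with JNKi and 16.4 in untreated MRC5, and FGF5 at 40.6 FPKM in iCAFs, 16.1 with JNKi and 60.9 in untreated MRC5. FGF1 had 1.30 FPKM in iCAFs, 2.36 with JNKi and 4.04 in untreated MRC5. PDGFRB and PDGFRA, the receptors that fibroblasts and mural cells use for PDGF, were higher, with PDGFRB at 23.1 FPKM in iCAFs, 74.8 with JNKi and 27.4 in untreated MRC5 and PDGFRA at 24.6 FPKM in iCAFs, 56.6 with JNKi and 34.3 in untreated MRC5.

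VEGFC, a lymphangiogenic factor, had a change of -1.20, from 79.5 to 34.2 FPKM, and VEGFA, the main angiogenic ligand, at 20.7 FPKM in iCAFs, 12.5 with JNKi and 11.8 in untreated MRC5. ANGPTL4, which inhibits lipoprotein lipase, was at 30.3 FPKM in iCAFs, 9.96 with JNKi and 6.10 in untreated MRC5. ANGPT1, the TEK agonist, was at 12.6 FPKM in iCAFs, 37.1 with JNKi and 10.6 in untreated MRC5, THBS1, which opposes angiogenesis, at 621 FPKM in iCAFs, 1527 with JNKi and 274 in untreated MRC5, and the VEGF receptor FLT1 went from 1.97 to 6.69 FPKM. Over 13 genes of this list 5 were 2-fold higher and 2 lower. None of 12 IGF-axis genes passed 2-fold, although IGFBP3, IGFBP4, IGFBP5 and IGFBP7 were abundant: IGFBP7 went from 543 to 878 FPKM and STC2 from 109 to 67.3 FPKM.

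TGF-beta signalling genes changed little as a list, with a median of 0.07, 2 of 23 higher by 2-fold and 0 lower. TGFB2, a ligand, went from 5.52 to 13.0 FPKM and SMAD6, an inhibitor, from 2.88 to 7.22 FPKM. CTGF, a matricellular protein and target of the pathway, was at 298 FPKM in iCAFs, 533 with JNKi and 116 in untreated MRC5. The BMP and activin list was higher in 17 of 21 genes, 3 by 2-fold, with a median of 0.32. BMP4 was at 3.57 FPKM in iCAFs, 14.8 with JNKi and 9.07 in untreated MRC5, FST, the activin antagonist follistatin, at 99.9 FPKM in iCAFs, 301 with JNKi and 71.0 in untreated MRC5, and ID4, a helix-loop-helix inhibitor and BMP target, at 1.00 FPKM in iCAFs, 7.38 with JNKi and 0.0800 in untreated MRC5. BMPER, a BMP-binding protein, was 2-fold lower at 5.42 to 1.80 FPKM. Of 9 WNT genes none passed 2-fold, with DKK1 at 0.83 and SFRP1 at -0.49. DLL4, a Notch ligand, was at 18.2 FPKM in iCAFs, 79.9 with JNKi and 8.36 in untreated MRC5, and was the 2-fold change among 7 Notch genes. NOTCH3, the receptor of mural cells, had a change of 0.66, and HEY1, a target, of 0.95. NOTCH1 and NOTCH2 had changes of -0.539 and -0.535, and HES4, also a target, of -0.15. Of the 7 Notch genes 4 were above 0 and 3 below.

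Collagen genes were mostly higher with the inhibitor. Of 38 chains in the list 24 passed the filter. Of these, 12 were at least 2-fold higher and 0 lower, 21 had changes above 0, and the median was 0.99, or 0.33 with no filter. COL3A1, a fibrillar collagen, was at 46.4 FPKM in iCAFs, 296 with JNKi and 73.6 in untreated MRC5, and COL1A1, of the most abundant fibrillar collagen, at 1094 FPKM in iCAFs, 2305 with JNKi and 1065 in untreated MRC5. For COL3A1 iCAFs were the lowest library, and for both genes iCAFs+JNKi were the highest. COL4A1 and COL4A2, of the basement membrane, were at 162 FPKM in iCAFs, 488 with JNKi and 52.5 in untreated MRC5 and at 295 FPKM in iCAFs, 749.7 with JNKi and 104 in untreated MRC5, so they were lowest in MRC5 and highest with JNKi. COL5A3 and COL14A1 had low levels and large changes, from 1.36 to 8.25 FPKM and from 0.110 to 5.59 FPKM. COL11A1 was at 5.84 FPKM in iCAFs, 15.5 with JNKi and 10.1 in untreated MRC5. COL12A1, COL24A1 and COL15A1 were the chains with changes below 0, the lowest being COL15A1 at -0.31.

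**Figure D3:**
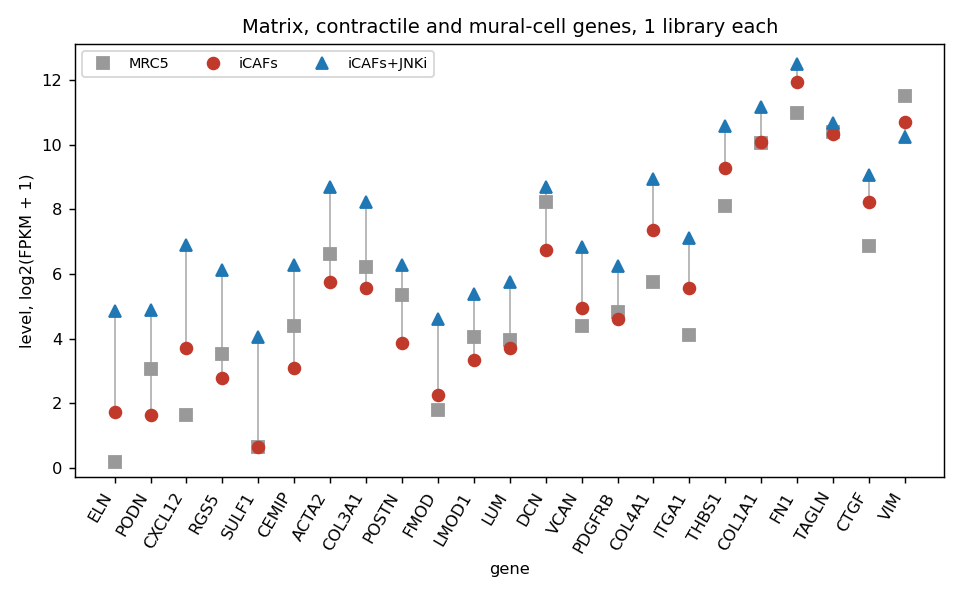
Levels of 23 matrix, contractile and mural-cell genes, log2(FPKM + 1), 1 point per library: grey squares MRC5, red circles iCAFs and blue triangles iCAFs+JNKi. The blue triangle is the highest point for all genes but VIM, and for ACTA2 it stands at 411 FPKM against 52.8 in iCAFs.

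Small leucine-rich proteoglycans, which bind collagen fibrils, were higher in each of the 6 genes that passed the filter, of 12 in the list, 5 of them by 2-fold, with a median of 1.97, or 0.11 with no filter. DCN was at 107 FPKM in iCAFs, 409 with JNKi and 296 in untreated MRC5: the medium library was the lowest and the treated library the highest. LUM was at 12.1 FPKM in iCAFs, 52.4 with JNKi and 14.6 in untreated MRC5, FMOD at 3.78 FPKM in iCAFs, 23.3 with JNKi and 2.49 in untreated MRC5 and PODN at 2.12 FPKM in iCAFs, 28.8 with JNKi and 7.26 in untreated MRC5. BGN went from 62.5 to 147 FPKM. Matrix glycoproteins were higher in 23 of 25 genes and 2-fold in 6, with a median of 0.72. ELN, the elastin precursor, was at 2.33 FPKM in iCAFs, 27.6 with JNKi and 0.118 in untreated MRC5, POSTN, a matricellular protein of CAFs, at 13.6 FPKM in iCAFs, 77.3 with JNKi and 39.6 in untreated MRC5, and FBN2, of microfibrils, at 13.6 FPKM in iCAFs, 54.7 with JNKi and 14.0 in untreated MRC5. FN1, the most abundant of them, was at 3939.9 FPKM in iCAFs, 5813 with JNKi and 2044 in untreated MRC5, a change of 0.56. CLEC3B, at -0.04, and THBS3, at -0.14, were the genes of that list below 0. HAPLN1, which links hyaluronan to proteoglycans, did not pass the filter.

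Hyaluronan and heparan-sulfate genes changed in both directions. HAS2, the hyaluronan synthase, was at 18.2 FPKM in iCAFs, 4.17 with JNKi and 5.27 in untreated MRC5, and CEMIP, which binds and degrades hyaluronan, at 7.47 FPKM in iCAFs, 76.6 with JNKi and 19.8 in untreated MRC5, so the synthase was lower and the degrading protein higher with JNKi. VCAN, a hyaluronan-binding proteoglycan, was at 29.5 FPKM in iCAFs, 114 with JNKi and 19.9 in untreated MRC5, and TNFAIP6, which modifies hyaluronan, went from 0.865 to 4.09 FPKM. SULF1, a sulfatase that removes sulfate from heparan chains, was at 0.571 FPKM in iCAFs, 15.4 with JNKi and 0.568 in untreated MRC5. SDC4 and SDC2, syndecans of the cell surface, went from 74.5 to 29.2 FPKM and from 14.1 to 34.5 FPKM.

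Collagen-modifying enzymes had a median of 0.36, with 2 of 20 genes 2-fold higher. P4HA3, a prolyl hydroxylase, went from 2.94 to 14.8 FPKM and PCOLCE, an enhancer of procollagen processing, from 80.8 to 164 FPKM. PLOD2, a lysyl hydroxylase, was 2-fold lower, at 104 FPKM in iCAFs, 45.3 with JNKi and 23.0 in untreated MRC5. LOX, the lysyl oxidase, had a change of 0.71 and LOXL1 by -0.46.

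Metalloproteinases and TIMPs had a median of 0.08, with 8 genes above 0 and 7 below. MMP1, the interstitial collagenase and a classic AP-1 target, was at 1042 FPKM in iCAFs, 455 with JNKi and 344 in untreated MRC5, whereas MMP3, stromelysin, was at 289.6 FPKM in iCAFs, 268 with JNKi and 33.7 in untreated MRC5 and MMP2, a gelatinase, at 237 FPKM in iCAFs, 449.9 with JNKi and 263 in untreated MRC5. MMP1 was the 2-fold change among 15 metalloproteinase and TIMP genes, and TIMP1 went from 1737 to 1830.2 FPKM. ADAMTS genes were higher in 7 of 8, 2 of them by 2-fold, with a median of 0.77 that became 0.038 with no filter, with ADAMTS7 from 3.70 to 18.1 FPKM and ADAMTS5, an aggrecanase, from 2.73 to 7.18 FPKM. Plasminogen activators and serpins were lower in 9 of 12 with a median of -0.86. PLAU, the urokinase, was at 1563 FPKM in iCAFs, 815 with JNKi and 339 in untreated MRC5, its receptor PLAUR at 94.6 FPKM in iCAFs, 48.5 with JNKi and 46.6 in untreated MRC5 and PLAT at 175 FPKM in iCAFs, 88.1 with JNKi and 64.5 in untreated MRC5: all of these were near 2-fold lower without passing it. SERPINB2 did pass, with 161 FPKM in iCAFs, 47.0 with JNKi and 97.1 in untreated MRC5, as did SERPINB7, with 8.81 to 3.48 FPKM. SERPINE2, an inhibitor of thrombin and plasminogen activators, was at 82.0 FPKM in iCAFs, 374 with JNKi and 95.5 in untreated MRC5 and was the exception on the higher side.

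Contractile genes were led by ACTA2, the smooth-muscle actin that marks myofibroblasts, at 52.8 FPKM in iCAFs, 411 with JNKi and 96.6 in untreated MRC5. The treated library was 7.78-fold above iCAFs and also above MRC5. FAS, which overlaps ACTA2 on the opposite strand, went from 16.0 to 19.5 FPKM. LMOD1, an actin nucleator of smooth muscle, was at 9.11 FPKM in iCAFs, 40.3 with JNKi and 15.6 in untreated MRC5 and ACTG2, another smooth-muscle actin, at 65.8 FPKM in iCAFs, 152 with JNKi and 147 in untreated MRC5. Those were the 3 of 21 contractile genes at 2-fold, 18 were above 0, and the median was 0.36. TAGLN, MYL9 and CNN1, which are usually counted with ACTA2, had a change of 0.34, 0.46 and 0.36, and SMTN by -0.90. Targets of serum response factor and actin signalling were level as a list, with a median of -0.01 that became 0.12 on the common sum. ANKRD1 alone passed 2-fold there, with 2.69 to 8.93 FPKM, while CYR61, often named with CTGF, had a change of -0.06.

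Genes used as pericyte markers were also among the higher ones. RGS5, which limits G-protein signalling in mural cells, was at 5.81 FPKM in iCAFs, 68.9 with JNKi and 10.5 in untreated MRC5. With ANGPT1 and PDGFRB it made 3 of 7 measured markers at 2-fold. CSPG4 and MCAM, however, had changes of -0.07 and -0.01, HIGD1B and COX4I2 were listed at 0 in all libraries, and the list summed to 170.3 FPKM in iCAFs, 328 with JNKi and 155 in untreated MRC5. RGS2 and RGS9 were higher too, with changes of 1.94 and 1.46, and with RGS5 they were the 3 of 10 RGS genes past 2-fold. Of 8 channels and pumps of contractile cells, TRPC6, a cation channel, was 2-fold higher with 1.76 to 4.87 FPKM, and ATP2B4, a calcium pump, had a change of -0.85.

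Marker lists of fibroblast states hold many of the genes above. The inflammatory CAF list held 6 genes 2-fold lower, namely LIF, IL6, PTGS2, CCL2, HAS2 and CXCL2, and 3 higher, namely CXCL12, C7 and PDGFRA, of 15 measured. Its median was -0.13, or -0.68 at a mean of at least 5 FPKM. The myofibroblastic list held 6 higher and 0 lower of 20, with a median of 0.83, and general fibroblast markers 6 higher of 12, with a median of 0.97. S100A4 and FAP, which are also used to mark CAFs, had a change of 0.36 and 0.56.

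Adhesion receptors and laminins split by chain. ITGA1, a collagen receptor, was at 45.9 FPKM in iCAFs, 138 with JNKi and 16.4 in untreated MRC5, and ITGA6 and ITGA7, laminin receptors, were at 29.8 FPKM in iCAFs, 8.57 with JNKi and 79.0 in untreated MRC5 and at 9.72 FPKM in iCAFs, 3.02 with JNKi and 13.3 in untreated MRC5. LAMB1, LAMA1 and LAMA2 went from 109 to 241 FPKM, 4.83 to 11.7 FPKM and 1.56 to 4.38 FPKM, while LAMB3, of an epithelial laminin, went from 12.6 to 5.72 FPKM. CDH6, a cadherin, was at 4.12 FPKM in iCAFs, 37.9 with JNKi and 4.87 in untreated MRC5, and PCDH18, a protocadherin, at 15.7 FPKM in iCAFs, 120.2 with JNKi and 28.0 in untreated MRC5. L1CAM, a neural adhesion molecule, was lower at 7.48 to 2.15 FPKM.

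**Figure D4:**
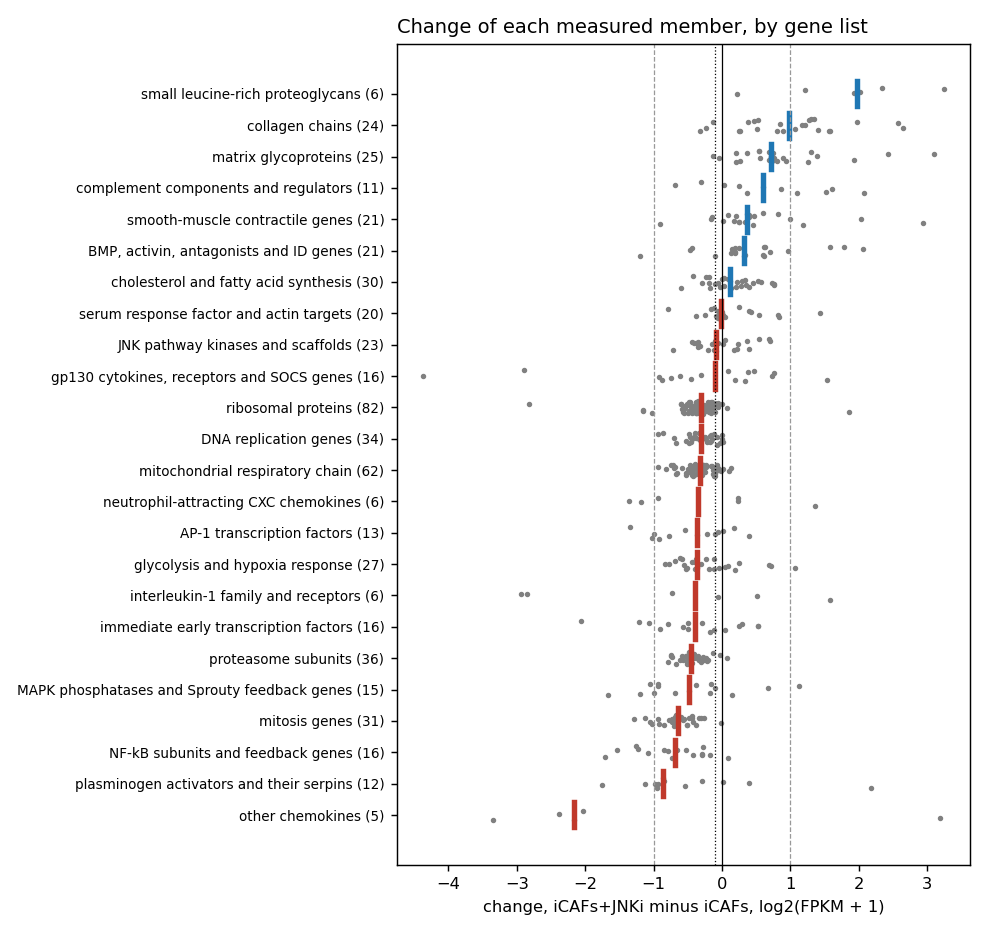
Change with JNKi of every member that passed the filter (grey points) of 24 gene lists, in log2(FPKM + 1), with the list median as a bar (red below 0, blue above) and the number measured in parentheses. The dotted line is the median of all genes, -0.10, and dashed lines mark 2-fold. Chemokines outside the neutrophil group have the lowest median, -2.16, and small leucine-rich proteoglycans the highest, 1.97.

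Genes of cell division were mostly lower in the mitosis list: 31 of 31 were below 0 as deposited, 4 by 2-fold, and the median was -0.65. CCNA2, at -0.006, was level and lay above the median of all genes. AURKB, a kinase of chromosome segregation, was at 6.85 FPKM in iCAFs, 2.22 with JNKi and 5.53 in untreated MRC5, CCNB1, the mitotic cyclin, at 13.8 FPKM in iCAFs, 5.75 with JNKi and 14.7 in untreated MRC5, and CDC20, an activator of the anaphase-promoting complex, at 9.02 FPKM in iCAFs, 3.92 with JNKi and 10.4 in untreated MRC5. DNA replication genes were below 0 in 31 of 34 with a median of -0.31 and none at 2-fold. RRM2, of ribonucleotide reductase, went from 15.8 to 7.82 FPKM and PCNA from 40.0 to 38.1 FPKM. Among G1 cyclins and kinases CCND1 went from 1008 to 728 FPKM, and the inhibitors CDKN1A and CDKN2A from 576 to 437 FPKM and 28.4 to 16.2 FPKM. None of 27 p53 targets and cell-cycle inhibitors reached 2-fold, with a median of 0.16. Apoptosis regulators included BCL2A1, a survival factor, which went from 4.14 FPKM to a listing of 0, PMAIP1, which encodes NOXA, with 66.8 to 23.4 FPKM, and on the higher side BMF with 2.55 to 11.1 FPKM.

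Housekeeping lists had medians below that of all genes by small amounts, with most members below 0. Abundant genes in general had lower changes, with a median of -0.18 in the fifth of genes with the highest means. The lists were not compared with genes of like abundance. The proteasome median was -0.45 with 35 of 36 below 0, the respiratory chain median -0.32 with 59 of 62, the ribosomal protein median -0.30 with 80 of 82, the glycolysis and hypoxia median -0.37 with 20 of 27, and the heat shock median -0.32 with 11 of 13. On the common sum these medians were -0.32, -0.19, -0.18, -0.24 and -0.19. GAPDH, often used as a reference gene, went from 3506 to 2050.3 FPKM, against 2969.7 to 2489 FPKM for ACTB. Transcript length moved with the change: its median was 2370.5 bases in the lower genes, 3530.5 in the higher genes and 3290 in all 11335 genes with a known transcript. Removing the length trend also centred the changes around 0 and left out genes with no known transcript. The lower genes then numbered 145, and these medians, in the order above, were -0.30, -0.13, -0.10, -0.20 and -0.18. With changes only centred on the median gene they were -0.35, -0.22, -0.21, -0.27 and -0.22.

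Lipid and stress genes held single large changes. G0S2, an inhibitor of triglyceride lipase, was at 53.2 FPKM in iCAFs, 9.65 with JNKi and 10.8 in untreated MRC5, and the fatty acid transporter CD36 at 0.810 FPKM in iCAFs, 4.10 with JNKi and 4.90 in untreated MRC5. FABP4, a fatty acid binding protein, was at 4.21 FPKM in iCAFs, 9.61 with JNKi and 28.7 in untreated MRC5, so that iCAFs were the lowest library for both CD36 and FABP4. Cholesterol and fatty acid synthesis genes had a median of 0.11 with none of 30 at 2-fold. HMGCS1, of the mevalonate pathway, was at 5.65 FPKM in iCAFs, 10.3 with JNKi and 23.3 in untreated MRC5. Among NRF2 targets AKR1B1, an aldose reductase, went from 998 to 445 FPKM and HMOX1, haem oxygenase, from 8.85 to 25.8 FPKM, with a median of -0.28 over 21 genes. MT2A, a metallothionein, was at 3827 FPKM in iCAFs, 1796 with JNKi and 1579 in untreated MRC5, and MT1X at 108 FPKM in iCAFs, 163 with JNKi and 29.0 in untreated MRC5, with the caution that metallothionein genes are near copies. CHAC1, an ATF4 target that degrades glutathione, was at 54.3 FPKM in iCAFs, 168 with JNKi and 39.3 in untreated MRC5 and was the 2-fold change among 27 genes of the unfolded protein and ATF4 response. CHI3L2 and CHI3L1, chitinase-like proteins, were at 0.784 FPKM in iCAFs, 21.8 with JNKi and listed at 0 in untreated MRC5 and at 0.967 FPKM in iCAFs, 5.18 with JNKi and 3.29 in untreated MRC5.

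The libraries with JUN overexpression gave a view of the same genes that shares no sample with the inhibitor table. Each of its conditions again had 1 library. JUN itself was at 25.5 FPKM with empty vector, 4543 with JUN WT and 291 with JUN AA, so JUN AA was expressed at a far lower level than JUN WT. Of 10020 genes passing the filter in both tables, 6.72% were at least 2-fold higher and 3.22% lower in JUN WT against control, and 5.05% and 3.50% in JUN AA against the same control.

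Genes lower with JNKi were at least 2-fold higher in JUN WT more often than all genes were. Of 174 such genes that were compared, 65, or 37.4%, were at least 2-fold higher in JUN WT and 1 was lower, with a median of 0.81 against 0.15 over all 10020 genes. In JUN AA 24 were higher, 13.8%, and 15 lower, with a median of 0.28 against -0.02. Genes higher with JNKi were more often lower in both: of 206, 62, or 30.1%, were at least 2-fold lower in JUN WT and 3 higher, and 68, or 33.0%, were lower in JUN AA and 9 higher. Their medians were -0.63 for JUN WT and -0.68 for JUN AA. The changes of both forms of JUN are taken against the same control library, so they are not independent of each other. JUN itself is among the 65 genes.

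**Figure D5:**
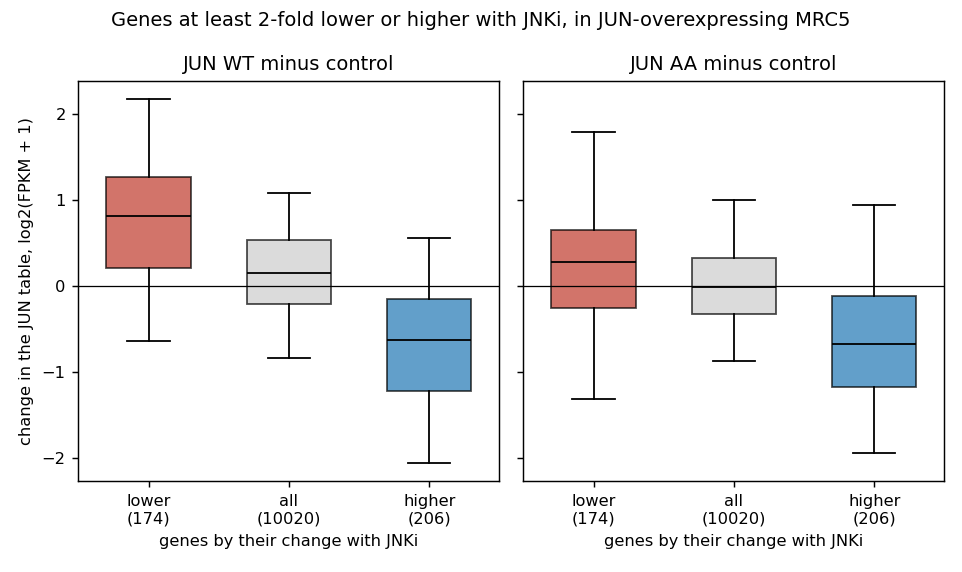
Change in the JUN table, log2(FPKM + 1), of genes at least 2-fold lower (red) or higher (blue) with JNKi and of all 10020 genes (grey), for JUN WT (left) and JUN AA (right) against the same control. Boxes span the quartiles with the median as a line, whiskers run from the 5th to the 95th percentile. The lower genes have a median of 0.81 for JUN WT and 0.28 for JUN AA, and the higher genes -0.63 and -0.68.

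Named genes showed how far this went. CXCL8 was at 0 FPKM with empty vector, 4.46 with JUN WT and 0.103 with JUN AA, and MMP1 at 31.1 FPKM with empty vector, 414 with JUN WT and 155 with JUN AA. CXCL8 passed the filter among the JUN libraries through its level with JUN WT, so an increase in it was favoured by the filter. SPRY2 was at 4.05 FPKM with empty vector, 18.9 with JUN WT and 6.59 with JUN AA, VEGFC at 12.3 FPKM with empty vector, 32.5 with JUN WT and 12.2 with JUN AA and HBEGF at 1.51 FPKM with empty vector, 5.64 with JUN WT and 1.36 with JUN AA, so in these the JUN WT library was the high one and JUN AA stood near the control or between. LIF was at 3.04 FPKM with empty vector, 10.9 with JUN WT and 8.89 with JUN AA, with JUN AA close to JUN WT. NRG1, lower with JNKi, was level at 7.55 FPKM with empty vector, 7.51 with JUN WT and 8.03 with JUN AA, and PLAU, near 2-fold lower with JNKi, was lower too in both JUN libraries, at 350.2 FPKM with empty vector, 149.9 with JUN WT and 125 with JUN AA. IL1B, CCL20, CSF3 and PTGS2 were below 1 FPKM in each JUN library and could not be compared.

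On the matrix side ACTA2 was at 874 FPKM with empty vector, 336 with JUN WT and 279.6 with JUN AA, and COL1A1 at 2388 FPKM with empty vector, 1014 with JUN WT and 1208 with JUN AA, both lower with either form of JUN. PDGFRB was at 60.4 FPKM with empty vector, 13.8 with JUN WT and 15.8 with JUN AA and CEMIP at 25.6 FPKM with empty vector, 1.57 with JUN WT and 1.13 with JUN AA. LUM, at 94.5 FPKM with empty vector, 24.9 with JUN WT and 240.1 with JUN AA, and PRRX2, a mesenchymal homeobox factor, at 96.9 FPKM with empty vector, 11.8 with JUN WT and 107 with JUN AA, were low in JUN WT only. POSTN, with 56.2 FPKM with empty vector, 42.4 with JUN WT and 91.3 with JUN AA, and DCN, with 200.4 FPKM with empty vector, 149.6 with JUN WT and 256 with JUN AA, were below the control in JUN WT and above it in JUN AA. Measured collagen chains had medians of -0.97 for JUN WT and -1.09 for JUN AA over 22 chains, and small leucine-rich proteoglycans -1.61 and -1.32 over 5.

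Some of the largest changes belong to symbols whose reads are hard to assign. SERF2-C15ORF63, a readthrough symbol, went from 36.7 FPKM to a listing of 0, while HYPK, the gene it also covers, went from 1.86 to 14.1 FPKM and SERF2 from 127 to 134 FPKM. BCL2L2-PABPN1 went from 19.0 to 1.85 FPKM, with BCL2L2 from 37.6 to 54.6 FPKM and PABPN1 from 28.6 to 29.7 FPKM. RPL13A went from 178 to 648 FPKM and its near-identical pseudogene RPL13AP5 from 2099.9 to 758 FPKM: summed, the 2 symbols went from 2278 to 1406 FPKM, a change of -0.70. RPL21, 19.6 to 1.93 FPKM, has many pseudogene copies. Of all 11780 compared genes 46 were readthrough symbols and 192 were small RNA genes, mainly small nucleolar RNA and microRNA genes, which often lie inside host transcripts. Of the 232 lower genes 12 and 25 were such symbols, and of the 265 higher genes 2 and 10 were. IL6, PTX3 and CEMIP overlap exons of STEAP1B, VEPH1 and MESDC2 on the opposite strand, and their reads cannot be told apart without strand, whose setting was not given. HBG2 overlaps HBE1 on the same strand. Without the readthrough and small RNA symbols and without rows that hold a mean of several values, 252 genes were higher and 192 lower.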

How the data were processed

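RNA-seq libraries of MRC5, iCAFs and iCAFs+JNKi, and of MRC5 with empty vector, JUN WT or JUN AA, were read as 2 tables of FPKM, which the authors computed per gene and deposited. The authors mapped reads to hg19 with HISAT2 2.1.0 and quantified them with StringTie 2.1.1, per the submitters' processing notes. The annotation and strand setting were not given in the sources used here. FPKM are not counts, so no count model was used, and with 1 library per condition no test was made and precision is unknown. Among 25370 rows, 288 held a mean of several values, and 28 symbols had become dates. Of 4 rows sharing a symbol, those with the highest mean were kept.

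Changes were computed as differences of log2(FPKM + 1), which understates changes of low genes, within each table (Python 3.11.15, pandas 2.3.3, numpy 2.4.6). Genes needed a mean of 1 FPKM over the 3 libraries. Members and lists were chosen with earlier results of these data known, and the 66 lists were joined by 10 that were written after their values were seen. Genes named were the 15 largest increases and decreases at a mean of 5 FPKM or more, the 3 largest of each kind in a list, those the study names for fibroblasts, and cell-type markers. Other names were chosen after their values were seen, and some genes that the rule names are not reported here. Alternatives were another pseudocount, other filters, libraries scaled to the same sum or centred, length and GC trends removed, and uncertain symbols left out. Transcript length, GC content and exon overlap came from GENCODE on GRCh37. Calculations were tested on simulated data.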

Additional observations from a re-analysis of the deposited data

How the results depend on the processing

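No paired analysis was possible because each condition has 1 library, and for the same reason no library could be left out. Of 547 recomputed counts and list medians 517 stayed within 1.5 times the reported count, within 10 percentage points or within 0.25 on the log2 scale, 30 moved further. No named gene changed 2-fold or more took the opposite sign. Of 3595 recomputed changes of named genes 3465 stayed within 0.25 and 130 moved. The share of higher genes among the 2-fold changes was 65.1% with libraries scaled to the same sum, 64.0% with changes centred on the median gene, 67.8% with the length trend removed and 66.7% with the GC trend removed, against 53.3% as deposited. Removing either trend also centred the changes around 0 and left out genes with no known transcript. Removing the length trend left 145 lower genes and put the histone median at 0.16. A pseudocount of 0.1 gave 386 lower genes and a median of -3.45 for chemokines outside the neutrophil group. With a mean of at least 5 FPKM there were 169 higher and 147 lower genes, and medians of 0.23 for neutrophil-attracting chemokines, 1.07 for pericyte markers, -0.68 for inflammatory CAF markers and 0.23 for the interferon response. With no filter, which adds genes at or near 0, medians were -0.10 for AP-1 factors, -0.15 for immediate early factors, 0.32 for the VEGF list, 0.038 for ADAMTS genes, 0.33 for collagens, 0.11 for small leucine-rich proteoglycans, 0.000235 for Notch genes, 0.029 for complement and -0.21 for apoptosis regulators. They were 0 for both chemokine lists, the interleukin-1 family, pericyte markers, keratins and HOX genes, and the JUN AA median of genes higher with JNKi was -0.41. Medians of the JNK kinase, IGF, prostaglandin, serum response factor, RGS, leukocyte, lipid storage and solute carrier lists lay so close to 0 that scaling changed their sign. Sequencing depth, and with it the precision of low values, is not known from FPKM.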

Other observations

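Further gene families were looked at after their values had been seen, and are given as values. Haemoglobin chains were higher with JNKi in the 4 genes of 10 that passed the filter, namely HBG1, HBG2, the embryonic HBE1 and the adult HBD. HBG2 was at 10.2 FPKM in iCAFs, 86.8 with JNKi and 0.538 in untreated MRC5, HBE1 at 11.5 FPKM in iCAFs, 64.1 with JNKi and 1.41 in untreated MRC5 and HBD at 0.341 FPKM in iCAFs, 10.2 with JNKi and 1.01 in untreated MRC5. HBG1 and HBG2 are near copies, and summed they went from 16.6 to 128.2 FPKM. Genes of the epidermal cornified envelope and of keratin-associated proteins of hair were lower in several cases. LCE2C was at 80.0 FPKM in iCAFs, 9.72 with JNKi and 40.7 in untreated MRC5, and LCE2B at 27.2 FPKM in iCAFs, 5.03 with JNKi and 38.5 in untreated MRC5. KRTAP2-3 was at 20.1 FPKM in iCAFs, 0.394 with JNKi and 13.5 in untreated MRC5. IVL, involucrin, was at 4.09 FPKM in iCAFs, 0.236 with JNKi and 0.538 in untreated MRC5. LCE and KRTAP genes are short and alike in sequence, and LCE2A, at 19.3 FPKM in iCAFs, 16.6 with JNKi and 47.7 in untreated MRC5, and LCE1F, at 2.68 FPKM in iCAFs, 4.05 with JNKi and 1.80 in untreated MRC5, had changes of -0.21 and 0.46. Keratin list members of simple epithelia were not lower, with KRT8 at 0.40 and KRT18 at 0.24.

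Genes with roles in immune evasion were lower in several cases: PVR, a ligand of TIGIT, went from 58.9 to 21.5 FPKM, NT5E, which makes adenosine, from 482 to 235 FPKM, PDCD1LG2 and CD274, the ligands of PD-1, from 11.7 to 4.82 FPKM and 1.96 to 0.457 FPKM, and the purine enzyme PNP from 21.9 to 8.04 FPKM. ADA, adenosine deaminase, went from 6.45 to 16.3 FPKM. Tubulins and filamins had a median of -0.78 over 14 genes, with TUBB3 from 102 to 33.3 FPKM and FLNC from 174 to 77.9 FPKM but FLNA from 349.8 to 485 FPKM. Mesenchymal transcription factors were 2-fold higher in 8 of 20, among them PRRX2 from 12.2 to 41.9 FPKM, ZEB1 from 39.4 to 92.2 FPKM and TCF21 from 45.1 to 92.1 FPKM. CLDN1, a tight-junction claudin, was at 127 FPKM in iCAFs, 26.5 with JNKi and 56.8 in untreated MRC5. Of 172 solute carriers 5 were 2-fold lower, 2.91%, and 4 higher, 2.33%, near the 1.97% and 2.25% of all genes. The largest changes among them were those of the phosphate transporter SLC20A1 with 142 to 34.0 FPKM and the iron exporter SLC40A1 with 1.66 to 8.25 FPKM. Of 339 ZNF genes 3 were higher, 0.88%, and 0 lower, of 33 histone genes 1, 3.03%, and 0, and of 12 HOX genes 0 and 0. PSG1, a pregnancy-specific glycoprotein of a family of near copies, went from 12.9 to 4.54 FPKM. Of 11 measured cathepsins, lysosomal proteases, 3 were 2-fold higher and 0 lower, with a median of 0.17. CTSC, CTSK and CTSF went from 63.5 to 164 FPKM, 16.4 to 35.6 FPKM and 7.08 to 15.3 FPKM, while CTSB was level at 357 to 351 FPKM. Small nucleolar RNA genes, 104 measured, held 14 lower and 4 higher by 2-fold, 13.5% and 3.85%. MicroRNA genes, 86 measured, held 10 and 6, 11.6% and 6.98%, against 1.97% and 2.25% of all genes.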
